A study of Mus musculus with 12 samples.

Results

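The response of control C2C12 cells to thapsigargin was examined in 6 of the 12 libraries of the study, taken by title: 3 of control cells kept in DMSO, the solvent, and 3 of control cells kept in thapsigargin, each for 6 h. C2C12 is a mouse myoblast line that can fuse into muscle fibres in culture. All 12 libraries were made from poly(A) RNA, and the other 6 hold the same 2 treatments in C2C12 cells with Cebpg knocked down, a label that the titles shorten to Sh2. What the control cells carried in place of the knockdown is not stated, no dose of thapsigargin is given, and the growth protocol names HeLa where the source field names C2C12. Each p-value reflects the variation among the 3 libraries of a group, pooled over the 4 groups of the 12 libraries. Nothing in the labels says that replicates were grown apart, so this variation may be technical.

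Thapsigargin blocks the SERCA pumps, which load calcium into the endoplasmic reticulum (ER). Without calcium the chaperones of the ER fold secreted and membrane proteins poorly, and the sensors IRE1, PERK and ATF6 start the unfolded protein response. PERK phosphorylates eIF2, which lowers translation in general but favours the transcription factor ATF4. IRE1 splices the mRNA of the factor XBP1 and cuts other mRNAs at the ER, and ATF6 is cleaved in the Golgi to release a factor that acts with XBP1 on promoters of chaperone genes.

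The control libraries held 32.1 to 47.7 M reads in genes. Of 15828 genes with enough reads to test, 11830 passed (74.7%) at an adjusted p of 0.05 by the quasi-likelihood test of edgeR, 5972 up (37.7%) and 5858 down (37.0%). A change of at least 1 in log2 was called for 2556 genes up (16.1%) and 1613 down (10.2%). At least 3 in log2 was reached by 842 genes up and 39 down. Of the calls, 4025 were smaller than 0.5 in log2, and 3998 genes did not pass, 199 of them with an unadjusted p under 0.05. The middle of the distribution lay between -0.51 (25th percentile) and 0.61 (75th percentile), with a median near 0. The libraries of the 2 groups did not overlap in level for 12194 genes (77.0%). Levels below are CPM, the gene's reads for each 1000000 gene reads of the library, scaled by TMM, edgeR's normalisation, and means are given ± SD over the 3 libraries of a group. A gene is said to rise, fall or change only where it passed, and log2 changes carry the SE of the fit. Counts of list members that rose or fell are to be read beside the 37.7% and 37.0% of all genes tested. The 2702 tested protein-coding genes lowest in DMSO stood at up to 1.78 CPM there. Of these, 1314 rose by at least 1 in log2 and 232 fell as much. Genes with few or no reads in DMSO could enter the test only through other libraries, which raises the share of rises here. Such groups are also set by the DMSO level, from which each change is measured, so these numbers are a description. Above 1.78 CPM falls of this size outnumbered rises. The numbers were 246 up and 396 down at 1.79 to 17.0 CPM, and 160 up and 253 down at 17.0 to 41.4 CPM. From 41.4 to 89.5 CPM they were 172 and 200, and higher still 133 and 252. Myoblast genes were present in all 6 libraries: Des was at 1186 ± 68.2 CPM in DMSO, Itga7 at 522 ± 29.6, Cdh15 at 189 ± 9.5 and Myod1 at 151 ± 4.65.

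The unfolded protein response is known to act through short promoter sequences, so RefSeq promoter windows on GRCm38.p6, 250 bases before to 50 after the start site, were searched in the 10540 of 13508 tested protein-coding genes that had one. The ER stress response element (ERSE, which is CCAAT and CCACG with any 9 bases between them), searched on both strands, is read by ATF6 with the CCAAT factor NF-Y. It stood in 17 windows (0.161%). Of those genes 13 were among the 1515 that rose by at least 1 in log2 (0.858%), 0 among the 990 that fell as much and 4 among the 8035 others (0.0498%). Its second form (ERSE-II, ATTGG and CCACG with any 1 base between them) stood in 7 windows, 4 of genes that rose by at least 1 in log2 and 0 of genes that fell as much. No window held both forms. Shown next are 5 genes that held a match and are among the 10 largest gains in TPM, which are described below. Sdf2l1 and Dnajb9, folding genes with larger log2 rises than Hsp90b1 and Calr, were not among the genes with a match. The 5 promoters are given 5′ to 3′, ending at the base before the start site. Capitals mark ERSE in the first 4 and ERSE-II in the last, Herpud1.
Hspa5 (chr2:34771840-34772089, plus strand): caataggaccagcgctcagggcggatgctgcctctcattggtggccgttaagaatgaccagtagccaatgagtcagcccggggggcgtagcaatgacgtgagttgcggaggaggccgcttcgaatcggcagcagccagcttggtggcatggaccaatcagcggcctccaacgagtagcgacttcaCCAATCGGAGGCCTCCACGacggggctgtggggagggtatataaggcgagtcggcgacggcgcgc
Creld2 (chr15:88819396-88819645, plus strand): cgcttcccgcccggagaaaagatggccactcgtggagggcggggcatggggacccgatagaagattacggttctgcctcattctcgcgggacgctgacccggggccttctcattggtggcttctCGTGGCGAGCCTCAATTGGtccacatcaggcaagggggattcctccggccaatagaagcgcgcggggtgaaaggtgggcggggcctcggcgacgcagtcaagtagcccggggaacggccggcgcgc
Hsp90b1 (chr10:86705445-86705694, minus strand): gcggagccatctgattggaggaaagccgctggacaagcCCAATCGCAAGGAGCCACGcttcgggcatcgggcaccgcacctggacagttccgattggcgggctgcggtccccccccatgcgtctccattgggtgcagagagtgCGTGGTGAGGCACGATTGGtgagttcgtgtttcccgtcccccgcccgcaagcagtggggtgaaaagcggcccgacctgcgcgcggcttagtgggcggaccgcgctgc
Calr (chr8:84846932-84847181, minus strand): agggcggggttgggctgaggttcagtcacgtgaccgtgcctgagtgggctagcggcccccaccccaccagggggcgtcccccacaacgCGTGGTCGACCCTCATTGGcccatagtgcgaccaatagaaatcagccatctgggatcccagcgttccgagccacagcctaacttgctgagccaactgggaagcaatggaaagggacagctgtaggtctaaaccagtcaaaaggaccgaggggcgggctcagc
Herpud1 (chr8:94386179-94386428, plus strand): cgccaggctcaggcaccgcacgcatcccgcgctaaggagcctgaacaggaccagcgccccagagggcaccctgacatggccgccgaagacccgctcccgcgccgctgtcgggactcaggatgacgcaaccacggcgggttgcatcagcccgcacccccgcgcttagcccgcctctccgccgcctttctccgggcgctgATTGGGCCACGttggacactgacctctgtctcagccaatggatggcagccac
Only exact matches were counted, so elements that differ in a letter are not included. The ERSE match of Hspa5 lay at -65 to -47 from its start site on the strand of the gene. Hsp90b1 carried 2, at -212 to -194 and at -107 to -89, the latter on the opposite strand. It was the single gene of the 10540 with more than 1 exact match. In Creld2 the match lay at -126 to -108 and in Calr at -162 to -144, both on the opposite strand. The ERSE-II of Herpud1 lay at -52 to -42. The 13 genes also included Syvn1, Dnajc3, Pdia6, Derl3, Alg12 and Canx, all members of the folding, degradation or glycosylation lists, and Acacb, Tdrd9 and Xlr3a, which are in none of these lists. Reads of Xlr3a may be shared with close copies of that gene. Of the 27 chaperone genes with a window 7 held an ERSE (25.9%), against 2 of 21 degradation genes (9.52%) and 0 of 33 genes of vesicle transport.

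The second set is shown for the amino acid branch. ATF4 pairs with C/EBP proteins on a composite element (C/EBP-ATF, TGATGNAAT, both strands), which stood in 51 of the 10540 windows (0.484%): in 20 of the genes that rose by at least 1 in log2 (1.32%) and in 1 of those that fell as much (0.101%). Among 42 genes of amino acid synthesis, transport and tRNA charging with a window it stood in 4 (9.52%), namely Iars, Pycr1, Aars and Gars. Its matches overlapped none of the other motifs searched. Capitals mark it in 3 genes that rose, all 3 on the opposite strand.
Fgf21 (chr7:45615491-45615740, minus strand): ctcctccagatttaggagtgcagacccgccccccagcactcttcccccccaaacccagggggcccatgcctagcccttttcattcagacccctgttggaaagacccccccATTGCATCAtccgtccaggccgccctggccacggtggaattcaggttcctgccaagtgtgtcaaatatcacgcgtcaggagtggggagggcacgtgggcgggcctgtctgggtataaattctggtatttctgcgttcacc
Nupr1 (chr7:126625471-126625720, minus strand): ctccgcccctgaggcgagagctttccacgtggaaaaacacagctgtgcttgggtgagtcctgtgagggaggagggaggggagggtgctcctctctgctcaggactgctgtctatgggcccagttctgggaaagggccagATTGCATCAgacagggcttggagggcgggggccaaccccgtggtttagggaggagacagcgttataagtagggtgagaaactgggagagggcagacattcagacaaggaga
Gars (chr6:55037751-55038000, plus strand): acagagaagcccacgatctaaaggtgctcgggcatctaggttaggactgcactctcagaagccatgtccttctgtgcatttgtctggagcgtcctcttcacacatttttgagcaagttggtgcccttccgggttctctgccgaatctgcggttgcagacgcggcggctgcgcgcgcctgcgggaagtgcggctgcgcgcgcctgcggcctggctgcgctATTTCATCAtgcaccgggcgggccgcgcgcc
These windows are short, and a match is a description of the letters, not of binding.

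Another 3 elements were searched in the same windows. TGACGTGG, which XBP1 and ATF6 can bind (UPRE), stood in 87 windows (0.825%), in 24 of the genes that rose by at least 1 in log2 (1.58%), and in 5 of 33 vesicle transport genes (15.2%). The cAMP response element TGACGTCA stood in 334 windows (3.17%) but in 29 of the genes that rose by at least 1 in log2 (1.91%). The E2F-type sequence TTTGGCGC stood in 99 windows (0.939%) and in 5 of 29 DNA replication genes (17.2%), but in 10 of the 990 genes that fell by at least 1 in log2 (1.01%).

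TPM, in which counts are divided by exon length and each library sums to 1000000, allow levels of different genes to be set side by side. Hspa5, the gene of the ER chaperone BiP, held 0.132 to 0.143% of all TPM in the DMSO libraries and 1.69 to 1.75% in the thapsigargin libraries, from 1368 ± 53.4 to 17236 ± 283 TPM. The lists of ER chaperones, degradation, translocon, vesicle transport and N-glycan genes together went from 2.64 to 2.71% of TPM to 7.55 to 7.74%. After Hspa5 the largest gains in TPM were those of Calr (1477 ± 7.94 to 4719 ± 168) and Herpud1 (107 ± 5.23 to 3218 ± 105). Hsp90b1, Pdia4, Creld2, Pdia3, Sqstm1, Atf4 and Slc3a2 completed the 10 largest, which encode 6 ER proteins of folding, a degradation adaptor, an autophagy receptor, a factor and a transporter subunit.

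The 10 largest losses were led by the cytoskeleton. The actin gene Actb went from 6127 ± 106 to 2446 ± 125 TPM, Actg1 from 4448 ± 110 to 2079 ± 53.8 and Acta2 from 3891 ± 104 to 1708 ± 89.6. Tmsb10 and Tmsb4x, which encode actin-binding thymosins, were among them, with S100a11, Anxa1, the noncoding RNA H19, the protease inhibitor gene Timp1 and the collagen gene Col3a1. The 10 losing genes held 3.14 to 3.20% of TPM in DMSO and 1.27 to 1.29% with thapsigargin. A mitochondrially encoded gene, mt-Co1, had the highest TPM in all 6 libraries.

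**Figure D1:**
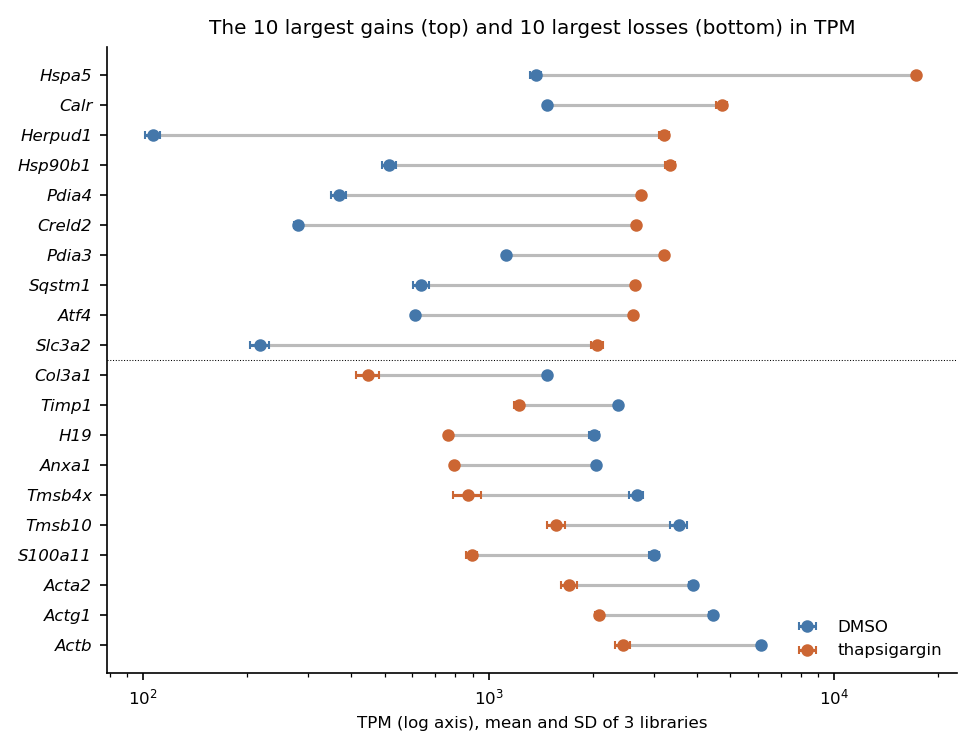
Mean TPM (x axis, log scale) with SD over 3 libraries for the 10 genes with the largest gain and the 10 with the largest loss among genes called by at least 1 in log2. Hspa5 ends at 17236 TPM, above every other gene shown, and Actb, the largest loss, goes from 6127 to 2446 TPM.

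The sensors and transcription factors of the response were mostly higher with thapsigargin: of 20 genes 17 rose, 1 fell and 2 did not pass, with a median change of 1.51 in log2 against a median near 0 for all genes tested. Ern1, which encodes IRE1, was at 44.4, 39.9 and 41.1 CPM in DMSO and at 133, 137 and 138 CPM with thapsigargin (1.70, SE 0.06, adjusted p = 3.04e-23). Atf6 was at 129.8, 125 and 131 CPM in DMSO and at 491, 489 and 475 with thapsigargin (1.91, SE 0.04, adjusted p = 1.51e-27). Eif2ak3, which encodes PERK, was at 38, 36.2 and 36.9 CPM in DMSO and at 79.7, 78.4 and 79 with thapsigargin (1.09, SE 0.05, adjusted p = 1.75e-19). All 3 sensor genes were thus higher in every thapsigargin library, Atf6 most and Eif2ak3 least.

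Of the downstream factors Ddit3, which encodes CHOP, stood at 17.3, 16.8 and 16.3 CPM in DMSO and at 398, 410.4 and 408 CPM with thapsigargin (4.59, SE 0.06, adjusted p = 5.79e-35). The pseudokinase gene Trib3, a CHOP and ATF4 target, stood at 13.9, 10.6 and 13.5 CPM in DMSO and at 384, 395 and 393 with thapsigargin (4.95, SE 0.08). Atf3, a repressor of the same family, rose by 5.59 (SE 0.06). For Ddit3 and Trib3 every thapsigargin library lay above every DMSO library. Xbp1 rose by 1.65, Creb3l2, a relative of ATF6, by 1.06 and Nfil3, a leucine zipper factor, by 2.66. Nupr1, a small stress-induced chromatin protein, rose by 2.51, while Atf6b (72.8 ± 3.62 to 73.9 ± 3.46 CPM) and Creb3l1 (396 ± 9.09 to 378 ± 28.7 CPM) did not pass. Creb3l1 passed, as a fall, without replicate 3 of the control thapsigargin libraries (adjusted p = 0.0105). Mbtps1, the Golgi protease that cuts ATF6, fell from 241 ± 3.51 to 153 ± 1.55 CPM (-0.66, SE 0.05).

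The genes that set the phosphorylation of eIF2 and use it had no common direction. Of 14 genes 6 rose, 3 fell and 5 did not pass, with a median of 0.08. Among all genes tested 37.7% rose, a share near that of this list, and 37.0% fell. Ppp1r15a, the inducible subunit (GADD34) that directs the phosphatase to eIF2, was at 38.8, 41.7 and 40.4 CPM in DMSO and at 609.5, 594 and 713 CPM with thapsigargin (3.99, SE 0.06, adjusted p = 7.25e-28). Ppp1r15b, the constitutive counterpart, rose by 0.62, and the catalytic subunit gene Ppp1ca fell by 0.64 on the log2 scale. Among the other eIF2 kinases Eif2ak4 (GCN2) fell from 58.4 ± 2.39 to 45.2 ± 0.876 CPM, and Eif2ak1 did not pass. The eIF2 beta subunit gene Eif2s2 rose by 1.14. Of 24 other initiation factor genes 17 rose, 3 fell and 4 did not pass. Eif1a rose by 1.35 and the translation inhibitor gene Eif4ebp1 by 1.28, whereas its paralog Eif4ebp2 fell by 0.92.

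**Figure D2:**
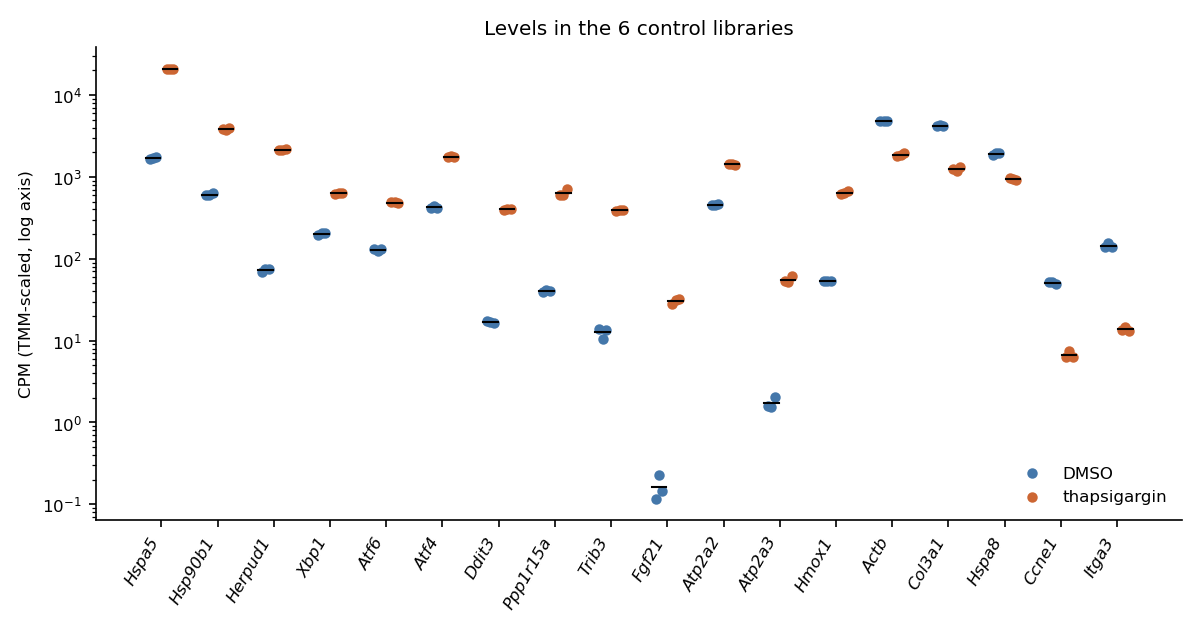
CPM (y axis, log scale) of 18 genes in the 3 DMSO libraries (blue) and the 3 thapsigargin libraries (orange) of control cells; points are libraries and black bars means. The 18 genes were picked for display, and in all of them the groups do not overlap, as in 77.0% of all genes tested. Levels range from Hspa5 at 1636 to 1748 CPM in DMSO and 20523 to 21097 with thapsigargin to Fgf21 at 0.116 to 0.229 and 28.2 to 32.2.

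Chaperones and folding enzymes of the ER mostly rose. Of 34 genes 28 rose, 5 fell and 1 did not pass, 17 rose by at least 1 in log2 and 0 fell as much, with a median of 0.85. The members summed to 11660 to 12020 CPM in DMSO and 49290 to 50100 CPM with thapsigargin. Hspa5 stood at 1636, 1707 and 1748 CPM in DMSO and at 21097, 20523 and 20559 CPM with thapsigargin, 12.2-fold higher (3.61, SE 0.05, adjusted p = 1.09e-34). Hsp90b1, the ER member of the HSP90 family, stood at 601, 595 and 632 CPM in DMSO and at 3895, 3738 and 3912 with thapsigargin (2.66, SE 0.05). The ATP-dependent chaperones and their cochaperones were among the largest rises. Dnajb9 rose by 3.43, Sdf2l1 by 3.50, Hyou1, a nucleotide exchange factor of BiP, by 2.93 and Dnajc3, an inhibitor of PERK and BiP cochaperone, by 2.66.

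Enzymes of disulphide formation rose as well. Ero1l, the oxidase that recharges disulphide isomerases, went from 77.6 ± 6.6 to 653 ± 19.9 CPM (3.07, SE 0.05), and Pdia4, Pdia6 and Pdia3 rose by 2.86, 1.55 and 1.47. The lectin chaperone genes Calr and Canx rose by 1.63 and 1.02. Manf, a secreted ER stress protein, rose by 2.62. The falls lay in one family apart from Dnajc10: the prolyl isomerase genes Fkbp9, Fkbp7, Fkbp10 and Fkbp14 fell by 0.69, 0.51, 0.29 and 0.17. Other members of that family, Fkbp11 and Fkbp2, rose by 1.64 and 0.68. Serpinh1, the collagen chaperone HSP47, rose from 1403 ± 49.6 to 2119 ± 51.6 CPM, while most of its clients, the collagen chains, fell.

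Genes of ER-associated degradation, which draws misfolded proteins out of the ER for the proteasome, rose in 24 of 27 cases, with 2 falls, 1 member that did not pass and a median of 0.50. Herpud1, an adaptor of the degradation complex, stood at 68.9, 75.6 and 74.7 CPM in DMSO and at 2107, 2107 and 2190.2 CPM with thapsigargin, 29.2-fold higher (4.87, SE 0.05, adjusted p = 2.53e-36). Syvn1, the ubiquitin ligase HRD1, rose by 2.82 and its partner Sel1l by 2.62. Edem1, which hands over mannose-trimmed glycoproteins, rose by 2.0. The cytosolic ligase gene Stub1 and the ER ligase gene Rnf139 fell by 0.19 and 0.22, and the lectin gene Erlec1 did not pass. The proteasome itself moved the other way: of 32 subunit genes 4 rose, 20 fell and 8 did not pass, with a median of -0.20 and a range from -0.79 (Psmd13) to 0.26 (Psmc6).

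The entry and exit routes of the ER rose together but less far than the chaperones. Of 28 genes of the translocon, signal peptidase and oligosaccharyltransferase 24 rose, 2 fell and 2 did not pass, with a median of 0.66. Sec61a1, the channel subunit, rose from 355 ± 1.42 to 834 ± 9.62 CPM (1.23, SE 0.04) and Srpr, the receptor of the signal recognition particle, by 1.08. Tusc3 and Spcs1 fell by 0.35 and 0.23. Of 37 genes of COPII, COPI and ER to Golgi transport 33 rose, 1 fell and 3 did not pass, with a median of 0.63. The tether gene Uso1 rose from 164 ± 3.74 to 479.9 ± 3.9 CPM (1.55, SE 0.04), the COPII coat gene Sec23b by 1.28 and Mia3, which loads large cargo such as collagen, by 1.02. The receptors that return chaperones to the ER did not move as one: Kdelr2 and Kdelr3 rose by 0.44 and 0.34 and Kdelr1 fell by 0.35.

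Genes that build the N-glycan were split, with 17 of 31 rising, 11 falling and 3 not passing and a median of 0.19. The shares among all genes tested were 37.7% up and 37.0% down. Of the hexosamine pathway, which supplies UDP-GlcNAc, Gfpt1, its first enzyme, rose from 137 ± 13.6 to 312 ± 1.32 CPM (1.18, SE 0.06), Pgm3 rose by 1.11, and the low-level paralog Gfpt2 rose from 0.336 ± 0.143 to 2.76 ± 0.527 CPM. The mannosyltransferase gene Alg12 rose by 1.44, whereas the glucosyltransferase gene Alg6 and the dolichol kinase gene Dolk fell by 0.75 and 0.62. Alg3, Pmm2 and Alg13 did not pass.

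IRE1 is known to cut a set of mRNAs at the ER membrane. All 11 transcripts tested from reports of such targets were lower, with a median of -1.41, and 8 fell by at least 1 in log2. Among all genes tested 37.0% fell and 10.2% fell by at least 1 in log2. The list was chosen with earlier results of these data known, so these counts are a description. Col6a1 stood at 648, 639.9 and 657 CPM in DMSO and at 168, 164 and 192 CPM with thapsigargin (-1.89, SE 0.15, adjusted p = 2.09e-06). St3gal5, a ganglioside synthase, fell by 1.73, the myelin gene Pmp22 by 1.57, Tapbp, which loads peptides on class I molecules, by 1.44, Hgsnat by 1.41 and Pdgfrb by 1.36. Sparc fell from 2959 ± 55.9 to 1951 ± 45.4 CPM. The 2 that are best known as targets elsewhere had few reads here. Scara3 went from 0.298 ± 0.0642 to 0.064 ± 0.0205 CPM, and Bloc1s1 from 0.471 ± 0.189 to 0.185 ± 0.0726 CPM (-1.38, SE 0.45, adjusted p = 0.00639). Without replicate 2 of the control DMSO libraries the adjusted p of Bloc1s1 was 0.0573, and without replicate 2 of the control thapsigargin libraries it was 0.0586. RNA decay and lower transcription cannot be told apart in these counts.

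Of the 3 genes of the SERCA pumps, which thapsigargin inhibits, 2 rose and 1 fell. Per exon length, Atp2a2 was the main pump in DMSO, at 255 ± 6.21 TPM, while Atp2a1, the pump of mature fast muscle, stood at 2.94 ± 0.39 TPM and Atp2a3 at 1.12 ± 0.192 TPM. Atp2a2 stood at 448, 455 and 463 CPM in DMSO and at 1429.9, 1453 and 1414 CPM with thapsigargin (1.65, SE 0.04, adjusted p = 2.04e-26). Atp2a3 went from 1.6, 1.55 and 2.05 CPM to 53.6, 51.5 and 61.4 CPM, 32.0-fold higher (5.00, SE 0.11, adjusted p = 4.61e-27). Atp2a1 fell from 3 ± 0.423 to 1.92 ± 0.274 CPM. Both rising pump genes were separated from DMSO in every library, and Atp2a3 remained below Atp2a2 in TPM (37 ± 3.88 against 828 ± 4.73).

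The rest of the calcium list fell more often than it rose: over all 26 genes tested 9 rose, 15 fell and 2 did not pass, with a median of -0.21. For this list and the next, the shares among all genes tested were 37.7% up and 37.0% down. Among the genes of store-operated entry, the ER calcium sensors Stim1 and Stim2 both fell by 0.70, the channel gene Orai2 rose by 1.26 and Saraf, which slows this entry, rose by 1.19. The ER release channel gene Itpr2 rose by 1.14 while Itpr3 fell by 1.05. Mcu, the mitochondrial calcium channel, rose by 1.10. The calmodulin gene Calm3 fell by 1.42. In the calcineurin and NFAT list 7 of 13 rose, 2 fell and 4 did not pass. Rcan1, a calcineurin inhibitor and NFAT target, rose from 33.3 ± 2.4 to 68.2 ± 2.11 CPM (1.03, SE 0.06), the catalytic subunit gene Ppp3ca by 1.03 and Nfatc2, at low level, by 1.77, while Nfatc1 and Rcan3 fell by 0.74 and 1.03.

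Genes of amino acid supply, several of which are known ATF4 targets, mostly rose. The list of enzymes that make amino acids or carry one-carbon units had 21 genes, of which 17 rose and 3 fell, with a median of 1.43. The mitochondrial enzyme gene Shmt2 was at 301, 297 and 319 CPM in DMSO and at 811, 817 and 861 with thapsigargin (1.44, SE 0.04, adjusted p = 4.72e-24). Mthfd2 and Aldh1l2, also mitochondrial, rose by 1.80 and 2.95. The cytosolic folate enzyme gene Mthfd1 fell by 0.44. Asns, which makes asparagine, rose from 203 ± 16.5 to 679 ± 6.9 CPM. Among 18 transporters 13 rose, 1 fell and 4 did not pass, with a median of 0.95. The large neutral amino acid carrier gene Slc7a5 rose from 293 ± 19.4 to 1399 ± 54.1 CPM (2.26, SE 0.05), its heavy chain gene Slc3a2 by 3.20, the cationic carrier gene Slc7a1 by 2.47, and the glutamate carrier gene Slc1a3 fell by 1.99.

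Enzymes that charge tRNA for cytosolic translation rose in 18 of 20 cases, with 0 falls and a median of 1.29, and 11 rose by at least 1 in log2. Tars stood at 364, 354 and 379 CPM in DMSO and at 1094, 1083 and 1156 CPM with thapsigargin (1.60, SE 0.04, adjusted p = 8.83e-26). The largest rise was that of Wars (2.23). The mitochondrial set did not follow: of 17 genes 9 rose, 7 fell and 1 did not pass, with a median of 0.18 and 1 rise of at least 1 in log2, that of Nars2 (10.7 ± 0.323 to 24.4 ± 0.487 CPM). Aars2 fell by 0.76, and Cars2 did not pass.

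Of 14 secreted stress hormones and growth factors 12 rose, 0 fell and 2 did not pass, with a median of 1.62. Fgf21, a hormone of nutrient and mitochondrial stress, stood at 0.116, 0.229 and 0.144 CPM in DMSO and at 28.2, 31.5 and 32.2 CPM with thapsigargin, 188-fold higher (7.52, SE 0.21, adjusted p = 1.58e-22). Gdf15 stood at 38.4, 42.5 and 42.8 CPM in DMSO and at 205, 224 and 247 with thapsigargin (2.45, SE 0.06). Adm2 rose by 4.73 and the stanniocalcin gene Stc2 by 2.23. The angiogenic factor gene Vegfa rose by 1.31, the EGF receptor ligand gene Areg by 2.68 and the cytokine gene Il6 by 1.85. Hbegf, the gene of another EGF receptor ligand, did not pass.

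Of 23 brakes and sensors of growth signalling 11 rose and 10 fell, beside 37.7% and 37.0% of all genes tested. Sesn2, which holds back mTORC1 when leucine is scarce, stood at 34.5, 31.7 and 35.7 CPM in DMSO and at 175, 178 and 198 with thapsigargin (2.44, SE 0.06, adjusted p = 5e-27), and its paralogs Sesn1 and Sesn3 fell by 0.88 and 1.09. Ddit4, another mTORC1 inhibitor gene, rose by 1.88. Depdc5, of the GATOR1 complex, and the insulin receptor substrate gene Irs1 fell by 1.56 and 1.26.

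Of the BCL2 family and death effectors 7 of 22 rose, 13 fell and 2 did not pass, with a median of -0.41. The level of Chac1, a CHOP target that degrades glutathione, went from 22.2 ± 2.8 CPM to 471 ± 11.4 CPM, a log2 change of 4.41 (SE 0.08, adjusted p = 1.46e-23). BH3-only genes split: Pmaip1 (NOXA) and Bbc3 (PUMA) rose by 1.77 and 1.45, while Bcl2l11 (BIM), Bmf and Bik fell by 0.71, 0.67 and 1.91. Bok, a BAX relative, fell from 94.9 ± 4.55 to 13.2 ± 0.234 CPM (-2.85, SE 0.06). Casp9 fell by 1.39. Dapk1, a death-associated kinase gene, had 0 reads in the DMSO libraries and 1.51, 1.41 and 2.33 CPM with thapsigargin, at least a 60.6-fold rise if 3 reads over the DMSO group are taken as the floor, which covers counting error only. In the p53 target list 12 of 20 genes rose and 2 fell, beside 37.7% up and 37.0% down among all genes tested. Its other 6 members did not pass, 4 rose by at least 1 in log2, and the list's median was 0.37. The polo-like kinase genes Plk3 and Plk2 rose by 2.33 and 2.24, Mdm2 by 1.38 and the CDK inhibitor gene Cdkn1a by 0.46.

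In the list of glutathione synthesis and NRF2 targets 7 of 20 genes rose, a share near the 37.7% of all genes tested, and 11 fell. Hmox1, which breaks down heme, stood at 52.9, 53.6 and 53.2 CPM in DMSO and at 626, 638 and 667 with thapsigargin (3.60, SE 0.05, adjusted p = 8.35e-33). Gclc, the first enzyme of glutathione synthesis, rose by 1.10, whereas Gstm1 and the glutathione reductase gene Gsr fell by 2.63 and 1.27 and the classical NRF2 target Nqo1 by 0.42.

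Chaperones of the cytosol differed from those of the ER. Heat shock genes of the cytosol numbered 16, and 10 fell against 4 that rose, 6 fell by at least 1 in log2 and 0 rose as much, with a median of -0.63. Hspa8, the constitutive cytosolic HSP70 and cousin of BiP, stood at 1873, 1978 and 1936 CPM in DMSO and at 959, 934 and 922 with thapsigargin (-1.04, SE 0.04, adjusted p = 1.03e-20). The inducible HSP70 gene Hspa1b fell from 51.4 ± 1.26 to 11.9 ± 1.07 CPM and the small heat shock gene Cryab by 1.80, with all thapsigargin libraries below all DMSO libraries. Hspa1a and Hspa1b are near-identical copies, so the split of reads between them is uncertain. Hsf1, which encodes the master factor of these genes, rose by 0.48. In mitochondria 10 of 16 chaperone and protease genes rose and 3 fell: the protease gene Lonp1 rose from 139.8 ± 3.43 to 452 ± 8.59 CPM and the HSP70 gene Hspa9 by 1.32.

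Of 29 autophagy genes 10 rose, 14 fell and 5 did not pass, which lies near the 37.7% and 37.0% of all genes tested. Sqstm1, the receptor p62, rose from 628 ± 40.8 to 2535 ± 12.5 CPM (2.01, SE 0.05) and Atg13 by 1.16, while Tfeb, the master factor of lysosomal genes, and the kinase gene Ulk1 fell by 1.08 and 0.89.

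Inflammatory genes rose in 21 of 28 cases, with 6 falls and a median of 0.85, beside 37.7% up and 37.0% down among all genes tested. Members with few or no reads in DMSO could enter the test only through other libraries, so the count of rises is a description. Ptgs2, the inducible cyclooxygenase, went from 168 ± 24.1 to 1823 ± 88.1 CPM (3.44, SE 0.09). Icam1 had 2 reads over the DMSO libraries and 5.34, 4.38 and 5.7 CPM with thapsigargin. The chemokine genes Ccl20 and Cxcl2 had 0 reads in DMSO and 1.2 ± 0.244 and 1.12 ± 0.562 CPM with thapsigargin, with the same floor at least 41.5-fold and 38.8-fold higher. The abundant chemokines went the other way: Ccl2 fell from 293 ± 21.1 to 109.6 ± 4.35 CPM and Ccl7 from 327 ± 6.58 to 139 ± 3.66 CPM. Nfkbia, which encodes the feedback inhibitor of NF-kappaB, fell by 1.20, whereas Tnfaip3, another feedback gene, rose by 0.55. Of 26 interferon response genes 17 rose and 4 fell, with a median of 1.24, and their summed level was 748 to 776 CPM in DMSO and 749 to 797 CPM with thapsigargin. Mx2 (0.241 ± 0.104 to 7.24 ± 1.26 CPM) and Ifit1 (3.06 ± 0.575 to 17.1 ± 3.7 CPM) were among the rises.

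Immediate early genes were mixed, with 15 of 28 higher and 9 lower, beside 37.7% up and 37.0% down among all genes tested. Gadd45a, a growth arrest gene, stood at 11.6, 11.1 and 9.51 CPM in DMSO and at 179, 181 and 169.5 with thapsigargin (4.04, SE 0.07, adjusted p = 2.36e-31). Klf4 and Myc rose by 2.47 and 2.04. The serum-response genes Egr3 and Nr4a1 fell by 1.43 and 1.06, and Jun fell by 0.40.

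Cell cycle genes fell. Of 18 G1 genes 1 rose, 14 fell and 3 did not pass, with a median of -0.80. The D cyclins diverged: Ccnd1 stood at 212, 215 and 238 CPM in DMSO and at 74.8, 73.5 and 75.2 with thapsigargin (-1.57, SE 0.06, adjusted p = 2.39e-20), Ccnd3 fell by 1.94 and Ccnd2 was the 1 gene that rose (81.6 ± 4.74 to 255 ± 6.44 CPM). Ccne1, which encodes cyclin E1, fell by 2.92 and its kinase gene Cdk2 by 2.0. Of 36 genes of DNA replication and nucleotide supply 34 fell and 0 rose, 18 by at least 1 in log2, with a median of -0.97. The thymidine kinase gene Tk1 fell from 103 ± 7.44 to 23.1 ± 1.48 CPM (-2.15, SE 0.06), Uhrf1 by 1.71 and the sliding clamp gene Pcna by 1.31. The other 2 did not pass. Of 28 G2 and mitosis genes 22 fell, 1 rose and 5 did not pass, with a median of -0.57. Replication-dependent histone genes were not lower: 9 of 15 rose and 1 fell, among them Hist1h1b from 0.24 ± 0.0646 to 6.36 ± 0.673 CPM. Most such mRNAs lack a poly(A) tail, so libraries made from poly(A) RNA hold few of them.

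Of 21 myogenic and myoblast genes 6 rose, 12 fell and 3 did not pass, beside 37.7% up and 37.0% down among all genes tested. Myf5 stood at 55.7, 61.6 and 68.1 CPM in DMSO and at 248, 247 and 259.8 with thapsigargin (2.03, SE 0.06, adjusted p = 3.7e-20), while Myod1, its partner in myoblast identity, fell from 151 ± 4.65 to 107 ± 1.96 CPM. The satellite cell gene Pax7 fell from 1.53 ± 0.0664 to 0.235 ± 0.0369 CPM. Myog, the factor of differentiation, rose from 4.37 ± 1.19 to 7.01 ± 0.236 CPM. Of 17 sarcomere and differentiation genes tested 3 rose, 9 fell and 5 did not pass. The tropomyosin gene Tpm2 fell by 1.19, and the slow myosin gene Myh7 rose from 0.106 ± 0.0611 to 2.04 ± 0.475 CPM.

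Matrix genes mostly fell. Of 21 collagen chains 1 rose, 16 fell and 4 did not pass, with a median of -0.48 and a summed level of 12460 to 12750 CPM in DMSO and 6128 to 6862 CPM with thapsigargin. Col1a1 stood at 318, 317 and 310.3 CPM in DMSO and at 105, 112 and 124 with thapsigargin (-1.47, SE 0.06, adjusted p = 2.79e-18). The single rise was Col2a1, from 0.289 ± 0.18 to 2.03 ± 0.606 CPM. Of 20 genes of hydroxylation, trimming and cross-linking 17 fell and 3 rose, with a median of -0.85: the cross-linking oxidase genes Lox and Loxl3 fell by 1.19 and 1.87, and the prolyl hydroxylase gene P3h2 rose by 1.87. Of 26 integrin, basement membrane and matricellular genes 19 fell and 2 rose. Itga3, an integrin that binds laminin, stood at 140.4, 155 and 139 CPM in DMSO and at 13.5, 14.7 and 13.3 with thapsigargin (-3.38, SE 0.06, adjusted p = 2.78e-31), and Fn1 fell by 0.66.

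Surface receptors fell in 21 of 31 cases and rose in 7, with a median of -0.51. Fzd2, a Wnt receptor gene, stood at 94.9, 97.8 and 95.4 CPM in DMSO and at 12.8, 11.9 and 13.6 with thapsigargin (-2.92, SE 0.06, adjusted p = 1.41e-29), Pdgfra fell by 2.48 and Met by 1.31. Osmr, a receptor chain of the IL-6 family, rose by 1.25. The 6 largest falls among genes above 10 CPM in DMSO were those of Oaf, Chst15, Itga3, Pxylp1, Pxdn and Rab7b, between -3.74 and -3.32, and Oaf, Chst15, Pxylp1 and Pxdn also encode secreted proteins or Golgi enzymes. The 6 largest rises above that level were those of Trib3, Herpud1, Ddit3, Chac1, Gadd45a and Ppp1r15a, between 4.95 and 3.99.

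In metabolism, genes of cholesterol and fatty acid synthesis fell in 25 of 32 cases and rose in 3, with a median of -0.54. Nsdhl, of the late sterol steps, fell from 89.2 ± 2.33 to 28.8 ± 0.785 CPM and Srebf2, the factor of the pathway, by 0.54, whereas Mvd rose by 0.93. Of 25 glycolysis and hypoxia genes 16 fell and 8 rose. Gapdh fell from 2215 ± 101 to 1370.1 ± 25.6 CPM and Pfkm by 1.52, while the hexokinase gene Hk2 rose by 1.24 and Ndrg1 by 2.24. Nuclear genes of the respiratory chain fell in 36 of 39 cases and rose in 1, with a median of -0.39 and a largest fall of 1.31 (Cox7a2). The mitochondrial genome gave 2.18 to 2.28% of gene reads in DMSO and 1.76 to 1.84% with thapsigargin. Of its 10 genes tested 7 fell and 0 rose.

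Ribosome biogenesis stood out from this fall: 28 of 30 genes rose, 1 fell and 1 did not pass, with a median of 0.59. Taf1d, of the RNA polymerase I initiation complex, rose from 48.1 ± 2 to 185 ± 4.41 CPM (1.95, SE 0.05) and Rrp12 and Nop58 by 1.4 and 1.28. Transcripts that host small nucleolar RNAs rose in 11 of 13 cases, 8 by at least 1 in log2, with a median of 1.74. Snhg12 stood at 12, 12.5 and 14.3 CPM in DMSO and at 163, 154 and 132 with thapsigargin (3.53, SE 0.07, adjusted p = 3.75e-26), Snhg1 rose by 2.52 and Gas5 from 49.6 ± 1.14 to 171 ± 14.8 CPM. Many of these hosts, Gas5 among them, are known to be cleared by nonsense-mediated decay when they are translated, and decay was not measured here.

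Genes silent in DMSO appeared with thapsigargin far more often than genes were lost. At an equal depth of 32.1 M reads a DMSO library was expected to show a read in 20372 to 20614 genes and a thapsigargin library in 23306 to 23439. For protein-coding genes the ranges were 14698 to 14789 and 16347 to 16504, and for long intergenic noncoding RNAs 1082 to 1084 and 1627 to 1669. A total of 1354 genes had 0 reads in all 3 DMSO libraries and at least 1 read in every thapsigargin library, 787 of them protein-coding. The reverse held for 90 genes, 21 of them protein-coding. Of the 2556 genes called up by at least 1 in log2, 490 had 3 reads or fewer over the DMSO libraries, and for these the fitted fold is not a bound.

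Among noncoding transcripts of at least 5 CPM, Gm42743 went from 1.05 ± 0.301 to 31.1 ± 4.67 CPM (4.88, SE 0.13) and the antisense transcript 2310043M15Rik from 0.0485 ± 0.0841 to 6.58 ± 1.03 CPM. Among the falls Brip1os went from 123 ± 4.19 to 31.7 ± 0.673 CPM (-1.95, SE 0.05) and Gm47015 from 50.4 ± 2.52 to 15.8 ± 2.4 CPM. How the counting treated strand is not stated, so reads of antisense transcripts and of the genes opposite them cannot be told apart.

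Markers of other cell types were measured because they could show other cells in a culture. In bulk RNA fewer cells of a type and less RNA per cell cannot be told apart. Markers with few or no reads in DMSO could enter the test only through the thapsigargin libraries, so the counts of rises among those tested are a description. Of 11 epithelial markers 6 had enough reads to test and 5 of these rose, while the defining genes Epcam and Cdh1 were among the 5 that had too few reads. Krt18 had 0 reads in DMSO and 1.48, 1.32 and 1.52 CPM with thapsigargin, with that floor at least 49.8-fold higher, and Krt8 went from 0.116 ± 0.0771 to 1.03 ± 0.319 CPM. The list summed to 14.5 to 16.9 CPM in DMSO and 22.5 to 26.1 CPM with thapsigargin. Of 8 endothelial markers 4 were tested and 3 rose, Tek from 3.86 ± 0.719 to 22.6 ± 2.09 CPM and Cdh5 from 1 read to 0.519 ± 0.2 CPM, and the list summed to 4.08 to 5.00 CPM and then 26.4 to 31.8 CPM. Of 11 leukocyte markers 3 were tested, 1 fell and 0 rose, and Ptprc had too few reads. The leukocyte list summed to 25.95 to 28.02 CPM in DMSO and 22.44 to 25.46 CPM with thapsigargin. Of 7 adipocyte markers 3 were tested, 1 rose and 1 fell, and the sum went from 146.9 to 153.4 CPM to 177.5 to 183.7 CPM. Of 9 neuronal markers 5 were tested, 3 rose and 1 fell, but their summed level was lower with thapsigargin. It was 329.9 to 351.2 CPM in DMSO and 186.1 to 193.7 CPM with thapsigargin. The part of other cells in any result was not tested.

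The same treatment in cells with Cebpg knocked down allows the size of each change to be compared, with the difference of the 2 changes tested in 1 model over 12 libraries. Cebpg itself stood at 51.7, 51.5 and 60.6 CPM in control DMSO libraries and at 211, 219 and 216 with thapsigargin (1.98, SE 0.06), and in knockdown cells at 4.62, 3.74 and 5.18 CPM in DMSO and at 6.11, 5.58 and 5.29 with thapsigargin. The responses differed at an adjusted p of 0.05 for 5594 of 15828 genes (35.3%), and by more than 1.5-fold for 693 (4.38%), the control response being the higher in 469 (2.96%) and the lower in 224 (1.42%). Of the 2556 genes that rose by at least 1 in log2 in control cells 334 differed by more than 1.5-fold, and in 327 of these the change was the lower in the knockdown. Of the 1613 that fell as much 144 differed, and in 142 the change was the less negative in the knockdown. In both sets some changes had the opposite sign there. These genes were chosen by the control response, so a smaller change elsewhere is in part built into the choice. Of the genes that rose 2156 were also called up in knockdown cells and 23 were called down. The median change was 2.11 in control cells and 1.53 in knockdown cells. The 2 populations share a treatment but differ in whatever else separates the knockdown from the control cells, and these cannot be told apart.

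The main ER stress genes were on both sides of this line. Hspa5 rose by 3.61 in control and 3.05 in knockdown cells and Trib3 by 4.95 and 4.75, and neither passed the test of a difference over 1.5-fold (adjusted p = 1 for both, by edgeR's test against that threshold). Ppp1r15a rose by 3.99 and 1.47 (difference 2.51, adjusted p = 8.87e-17), Hmox1 by 3.60 and 1.60 and Ero1l by 3.07 and 0.85. Among the larger differences was that of Avil, an actin-bundling gene, which went from 1.13 ± 0.388 to 67.5 ± 7.64 CPM in control cells (5.90, SE 0.14) and changed by 1.01 in knockdown cells. Cdsn, of cornified skin, went from 6.49 ± 0.795 to 40.8 ± 2.1 CPM in control cells and changed by -1.28 in knockdown cells. Among falls, the factor gene Cebpa went from 25.2 ± 0.659 to 6.31 ± 0.766 CPM in control cells (-1.99, SE 0.10) and changed by 0.21 in knockdown cells, and the chemokine gene Cxcl12 changed by -2.68 and -0.57.

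**Figure D3:**
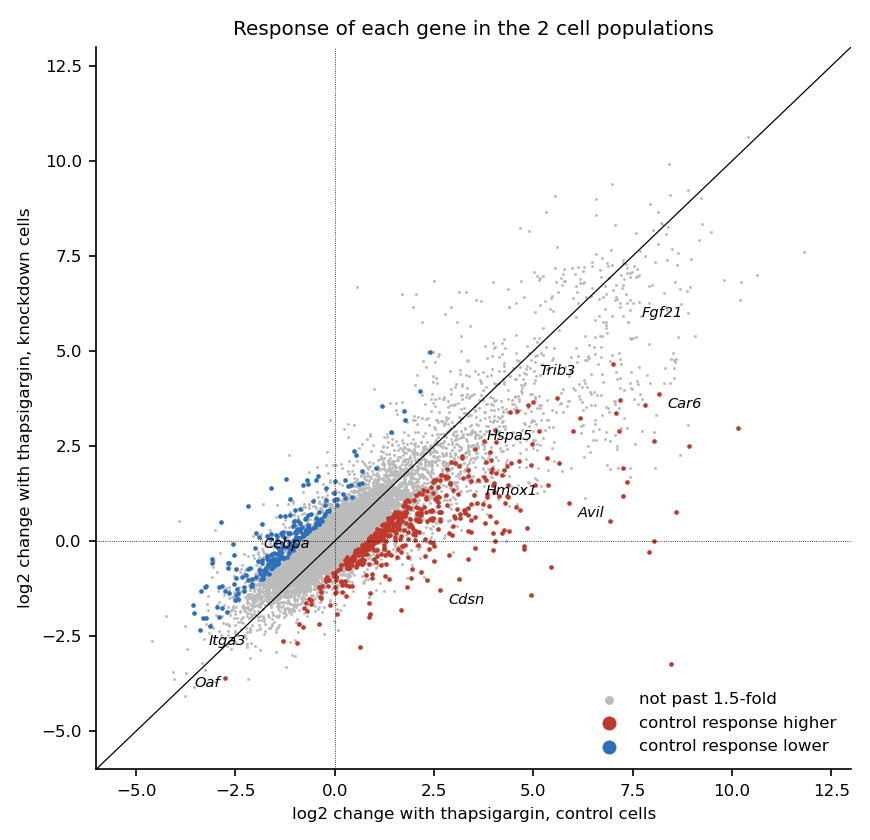
Fitted log2 change with thapsigargin in control cells (x axis) and in knockdown cells (y axis) for the 15828 genes tested; the line marks equal changes. Red and blue mark the 469 and 224 genes whose changes differ by more than 1.5-fold, and most of the 693 lie nearer to 0 on the y axis than on the x axis.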

How the data were processed

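The deposited files hold the authors' whole-number read counts per gene, not normalised. Per the submitters' processing notes the tools were Trim Galore, STAR 2.5.3a, bedtools 2.31.0 and DESeq2, with mm10 and hg38 as builds. The counter, annotation and use of strand are not given in the sources used here. Rows that name no gene held 13.3 to 14.6% of counts per library and were left out. Of 53801 identifiers 53706 matched GENCODE vM21 (GRCm38), which gave symbols, exon lengths for TPM and gene classes. All 12 libraries, in 4 groups of 3, were fitted with the quasi-likelihood test of edgeR 4.0.16 (R 4.3.3, TMM, filterByExpr, no block) and adjusted by Benjamini-Hochberg over 15828 genes. Differences over 1.5-fold used glmTreat. The fit was checked on simulated data. Alternatives used limma 3.58.1 and DESeq2 1.42.0. Equal-depth gene numbers are exact expectations. Counting-error floors take 3 reads. Replicate libraries differed by more than sampling noise, and none was identical to another.

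Members and lists were chosen with earlier results of these data known. Genes were named by rule: the 10 largest gains and losses in TPM, the 6 largest rises and falls above 10 CPM in DMSO, in each list the 2 largest rises and falls, preset key members and members that did not pass where 3 or fewer, the 4 largest noncoding changes each way from 5 CPM, and the 6 largest differences between the cell populations each way. A further 68 of 251 genes were chosen after their values were seen, and a few that the rule names are not reported here.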

Additional observations from a re-analysis of the deposited data

Results flagged for a closer look

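The change with thapsigargin differed by more than 1.5-fold between control and knockdown cells for 62 of the 251 genes named, by edgeR's test of the difference against that threshold with Benjamini-Hochberg adjustment over 15828 genes. Values are the log2 change in control cells minus that in knockdown cells, and over all genes 4.38% passed. The genes named were mostly chosen for a large change in control cells.

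The control change was the higher by at least 1.5 in log2 for Dapk1 (6.41), Avil (4.88), Icam1 (4.23), Cdsn (3.93), Ppp1r15a (2.51), Ero1l (2.22), Hmox1 (2.0), Areg (1.93), Ptgs2 (1.86), Atf3 (1.82), Cebpg (1.66), Sesn2 (1.66), Gdf15 (1.64), Il6 (1.62) and Ccnd2 (1.58). It was the higher by 1 to 1.5 for Ddit4 (1.49), Sel1l (1.46), Tek (1.44), Hk2 (1.41), Atp2a3 (1.35), Herpud1 (1.28), Slc7a1 (1.21), Ddit3 (1.17), Pdia4 (1.17), Gadd45a (1.10), Mvd (1.08), Lonp1 (1.06), Hsp90b1 (1.05), Chac1 (1.02), Ern1 (1.02) and Plk3 (1.01). Smaller positive differences were those of Slc3a2 (0.95), Syvn1 (0.94), Atp2a2 (0.93), Vegfa (0.92), Dnajc3 (0.92), Edem1 (0.92), Klf4 (0.91), Ppp3ca (0.89), Gars (0.88), Wars (0.88), Hyou1 (0.86), Pdia3 (0.86), Pycr1 (0.83), Shmt2 (0.82) and Rrp12 (0.79). The control change was the lower for Cebpa (-2.20), Bmf (-2.16), Cxcl12 (-2.11), Pxylp1 (-2.04), Bik (-2.01), Fzd2 (-1.71), Chst15 (-1.67), Rab7b (-1.29), Pmp22 (-1.24), Bok (-1.08), Pdgfra (-1.07), Itga3 (-1.04), Ccl2 (-0.95), Ccne1 (-0.93), Rcan1 (-0.88) and Jun (-0.86). Rcan1 rose in both populations, by 1.03 in control and 1.92 in knockdown cells, and Jun fell by 0.40 in control cells and changed by 0.46 in knockdown cells.

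Some of these differences were lost with 1 library left out. The adjusted p of Atp2a3 was 0.0894 without knockdown DMSO replicate 1, and that of Dapk1 was 0.147 without knockdown DMSO replicate 2. For Bik it was 0.0596 without control thapsigargin replicate 1 and 0.0661 without knockdown thapsigargin replicate 3. For Rrp12 it was 0.162 without control DMSO replicate 1, 0.0601 without control thapsigargin replicate 3, 0.0543 and 0.0652 without knockdown DMSO replicates 1 and 2, and 0.0702 without knockdown thapsigargin replicate 3. Pycr1 passed in the full fit at 0.0483 and was lost without any 1 of 9 libraries, with an adjusted p of up to 0.155 (without control DMSO replicate 1). With scaling by library size only, the differences of Gars, Hyou1, Pdia3, Ppp3ca, Shmt2, Vegfa and Wars were lost, with adjusted p between 0.0597 (Wars) and 0.325 (Shmt2), as were those of Atp2a3, Pycr1 and Rrp12. The cause of these differences was not tested.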

How the results depend on the processing

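The counts of changes of at least 1 in log2 were recomputed under 24 alternatives of scaling, filter, tool, threshold and libraries, and the other counts under those of the 24 that apply to them. Genes called up by at least 1 in log2 numbered 1618 under a stricter filter on low counts, against 2556, since fewer genes were tested. Genes called down numbered 940, against 1613, when edgeR tested the change against 1 in log2. With each library left out in turn, 11526 to 12129 genes were called, 2582 to 2765 up and 1562 to 1698 down by at least 1 in log2, 5062 to 5448 differed between the cell populations and 619 to 665 differed by more than 1.5-fold. The other settings kept every count they gave within 1.5 times its main value. Nothing in the labels ties equal replicate numbers to a shared culture. Correlations of same-numbered deviations were -0.03 to 0.066 and those of differently numbered ones -0.078 to 0.069. These values cannot show whether cultures were shared. With the replicate block 11854 genes were called, 2554 up and 1598 down by at least 1 in log2, 5770 differed and 708 differed by more than 1.5-fold. Scaling moved the median of all genes by at most 0.039 in log2, and no list's median changed sign. Of the 251 genes named, 2, Bloc1s1 and Creb3l1, did not keep their call for the control response under every alternative that tested them. Most genes were tested under 22 alternatives, but Scara3, Cdh5 and Bloc1s1 under 20 and Derl3 and Cxcl2 under 21. Creb3l1 also passed with scaling by library size only (adjusted p = 0.0462). Of the 62 differences 13 were lost under at least 1 alternative, Chac1 with DESeq2 alone (adjusted p = 0.0966). Depth limits genes with few reads: 490 of the 2556 rises started from 3 reads or fewer over the DMSO libraries.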

Other observations

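The response varied with gene structure and class. Of protein-coding genes in the fifth with the shortest span 787 rose and 1268 fell, with a median of -0.19 in log2, and in the fifth with the longest span 1292 rose and 873 fell, with a median of 0.16. Span and level are not independent, and their parts were not separated. The shares that follow are of genes that passed the filter on low counts, some of them through the thapsigargin libraries alone, which raises the share of rises. Among all genes tested 16.1% rose by at least 1 in log2 and 10.2% fell as much. Of 54 unprocessed pseudogenes tested 24 rose as much (44.4%) and 2 fell, but of 497 processed pseudogenes 68 rose (13.7%) and 45 fell (9.05%). Of 569 long intergenic noncoding RNAs 206 rose (36.2%) and 64 fell (11.2%), and of 403 antisense transcripts 82 rose (20.3%) and 68 fell (16.9%). Reads of a pseudogene and of its parent gene may be shared.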
